A study of Mus musculus with 30 samples.

Results

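*H19*, *Igf2*, *Cdkn1c*, *Peg3*, *Mest*, *Grb10*, *Dlk1*, *Meg3*, *Rian* and *Mirg* are imprinted genes of growth control, followed here through kidney and gastrocnemius muscle of mice on a chow diet (CD), a western diet (WD) or the WD with cyclo(His-Pro) (CHP), a ring-closed dipeptide made of histidine and proline. They were taken by symbol from the gene name column of the count table of each tissue. All 10 had exactly 1 row in each table, 10 of 55825 genes in all. The genes were proposed from a readout of these same libraries, and which value chose each gene is not recorded. Their differences between the groups are therefore given as a description, with fold changes and errors but without p-values.

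All groups were wild-type C57BL/6J males kept warm, at 30 to 32 °C, since the age of 6 weeks. The diets ran from Week 7 until the tissues were taken in Week 24, when food had been withdrawn for 3 h. Over the same weeks the WD + CHP mice had 3 weekly oral doses of 20 mg/kg CHP, and the CD and WD mice had water in its place. RNA-seq covered 5 libraries per group and tissue, 30 in all, with RNA taken from each mouse separately. The design asks what the WD did to these genes (WD vs. CD) and what CHP did on the WD (WD + CHP vs. WD), and WD + CHP vs. CD sets the treated mice against chow. Each pair of these comparisons shares a group of libraries, so they are not independent of each other. The sources do not say which kidney and muscle libraries belong to 1 animal, and each tissue was analysed on its own.

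Counted reads ran from 37189192 to 38211422 per kidney library and from 50319024 to 53282969 per gastrocnemius library. Mitochondrial genes took 7.74% to 10.25% of counts in CD gastrocnemius, 9.09% to 10.47% in WD and 9.49% to 11.53% in WD + CHP. In kidney these ranges were 17.8% to 19.6%, 18.7% to 20.9% and 18.9% to 21.1%. The part of this share in the results was not tested. The sample labels name frozen liver as the source of every library, whereas the study's methods name kidney and gastrocnemius. All 10 marker genes of the nephron passed the low-count filter in kidney and 0 did in gastrocnemius, and of 10 fast muscle fibre genes 3 and 10 passed, respectively. All levels are CPM, a gene's reads relative to the TMM-scaled library size, and a gene is called when its adjusted p across all genes of the tissue (edgeR quasi-likelihood F test, Benjamini-Hochberg) is under 0.05.

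Imprinted genes are expressed from the maternal or the paternal copy only, according to DNA methylation laid down in the germ line. *H19*, a maternally expressed long non-coding RNA, and *Igf2*, a paternally expressed fetal growth factor, share enhancers on distal chromosome 7, and *Cdkn1c*, the cyclin-dependent kinase inhibitor p57, lies in the neighbouring domain. On chromosome 12, *Dlk1*, a transmembrane inhibitor of adipocyte differentiation, is expressed from the paternal copy, whereas the non-coding RNAs *Meg3*, *Rian* and *Mirg* are expressed from the maternal copy. *Peg3* encodes a zinc finger protein, *Mest* a protein with an alpha/beta hydrolase fold that is known as a marker of fat mass expansion, and *Grb10* an adaptor that restrains insulin and IGF1 receptor signalling. Most of the set is high before birth and falls after it, and *H19* is known to stay high in adult skeletal muscle. In an inbred strain, gene counts do not separate the parental copies.

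The genes lie on 4 chromosomes, 4 of them on chromosome 7 and 4 on chromosome 12. In GENCODE M21 (GRCm38), *H19* spans chr7:142575529-142578143, *Igf2* chr7:142650766-142666816, *Cdkn1c* chr7:143458339-143461050 and *Peg3* chr7:6703892-6730431, all on the minus strand. *Dlk1* spans chr12:109452823-109463336, *Meg3* chr12:109541001-109571726, *Rian* chr12:109603940-109661716 and *Mirg* chr12:109729764-109749460, all on the plus strand. *Mest* spans chr6:30723547-30748465 on the plus strand and *Grb10* chr11:11930508-12038683 on the minus strand. Of the 10, 6 are annotated as protein coding.

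Several of these transcripts are also hosts of miRNAs, and the mature sequences are shown because they are products of the same transcripts that these libraries do not measure. RefSeq (GRCm38.p6) places 1 miRNA hairpin inside each of *H19*, *Igf2*, *Meg3* and *Mest*, 3 inside *Rian* and 14 inside *Mirg*. Rows for these hairpins held at most 2 reads in any library, with 0 reads on *Mir675* and at most 1 on *Mir335*. The libraries were enriched for polyA RNA, so the host transcript and not the mature miRNA was read. The arms from *H19*, at chr7:142577112-142577133 and chr7:142577078-142577099, and from *Mest*, at chr6:30741314-30741336 and chr6:30741354-30741375, are given 5′ to 3′ with the seed (bases 2 to 8) in capitals:
mmu-miR-675-5p: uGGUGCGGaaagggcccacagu
mmu-miR-675-3p: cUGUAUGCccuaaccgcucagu
mmu-miR-335-5p: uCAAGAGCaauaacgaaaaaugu
mmu-miR-335-3p: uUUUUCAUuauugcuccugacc

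None of these 4 seeds recurs among the miRNAs of the members. Within the chromosome 12 cluster, 2 arms from *Mirg* have the same seed, and they are printed to show it:
mmu-miR-453: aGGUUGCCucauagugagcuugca
mmu-miR-496a-5p: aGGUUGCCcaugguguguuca

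*Mest* was the member that differed most between the groups, so a promoter stretch of *Mest* is also shown. It is the 250 bases before a RefSeq start (chr6:30737800-30738049, plus strand, GRCm38.p6), picked because its window had the most TGCCGC matches of the *Mest* windows. The window held 14 CpG and 62.4% G or C, and the 2 stretches in capitals match TGCCGC on the opposite strand:
Mest promoter: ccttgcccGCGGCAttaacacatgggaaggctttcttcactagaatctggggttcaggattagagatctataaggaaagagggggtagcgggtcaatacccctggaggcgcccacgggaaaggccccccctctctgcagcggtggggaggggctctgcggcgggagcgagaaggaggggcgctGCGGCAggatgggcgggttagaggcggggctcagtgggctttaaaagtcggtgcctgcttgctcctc

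ZFP57, a zinc finger protein that protects imprints, binds TGCCGC when it is methylated. On either strand it occurred in 5 of 15 promoter windows of 300 bases that RefSeq lists for 8 of the members, and in 11.6% of 32851 such windows over all genes. Of the 5, 2 are windows of *Mest* that start at 30737800 and 30737803 and hold the same matches, so they are not separate promoters. The *Mest* window that starts at 30733256 held 0. Of other motifs scanned in the same windows, TATAAA was in 1, CANNTG in 9 and CCCTC in 12 of the 15. Over all genes these were in 13.6%, 72.3% and 66.0% of windows. A match is a description of the letters and does not show binding, and methylation was not measured here.

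*H19* was by far the most abundant member in gastrocnemius. Per kilobase of exon, its level was 188 CPM per kb ± 26.9 (SD, n = 15), which ranked 124 of 55141 genes. *Cdkn1c* followed at 8.30 ± 1.81, *Grb10* at 3.16 ± 0.484 and *Mest* at 1.11 ± 0.680 CPM per kb. The lower members were *Meg3* at 0.893, *Peg3* at 0.755, *Rian* at 0.407, *Dlk1* at 0.209, *Igf2* at 0.0667 and *Mirg* at 0.0442 CPM per kb. Across the 15 libraries, the ranges of *H19*, *Cdkn1c* and *Grb10* overlapped with none of their neighbours in this order, whereas *Mest* overlapped with *Meg3*, *Meg3* with *Peg3*, *Rian* with *Dlk1*, and *Igf2* with *Mirg*. The place of *Mest* comes from WD, where it stood at 1.95 CPM per kb, whereas in CD, at 0.495, it was below *Meg3* (0.886) and *Peg3* (0.811), and in WD + CHP, at 0.869, it was near *Meg3* (0.895). *H19* alone took 0.0311% to 0.0612% of all counts of a gastrocnemius library.

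Kidney held a different subset of these genes. *Cdkn1c* led at 5.29 CPM per kb ± 0.529 (SD, n = 15), with *Grb10* at 4.32 ± 0.260, *Peg3* at 2.12 ± 0.296 and *Mest* at 0.578 ± 0.0781. The ranges of *Cdkn1c* and *Grb10* overlapped in kidney and those of *Grb10*, *Peg3* and *Mest* did not. The other 6 members were at or under 0.0226 CPM per kb on average. Kidney libraries held 0 to 4 reads on *H19*, 0 to 4 on *Igf2*, 4 to 10 on *Meg3*, 1 to 13 on *Rian*, 0 to 3 on *Mirg* and 1 to 10 on *Dlk1*, and these 6 genes did not pass the filter on low counts. *H19* summed to 28 reads over the 15 kidney libraries and to 362993 over the 15 gastrocnemius libraries, and the difference between the tissues was not tested. The adrenal gland, which lies against the kidney, expresses several of these genes. Of 13 adrenal markers, 2 passed the filter in kidney, *Star* with 147 to 220 reads and *Akr1b7* with 13 to 35, and the steroid hydroxylase genes *Cyp11a1*, *Cyp11b1* and *Cyp11b2* had at most 2, 1 and 0 reads in any kidney library.

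**Figure D1:**
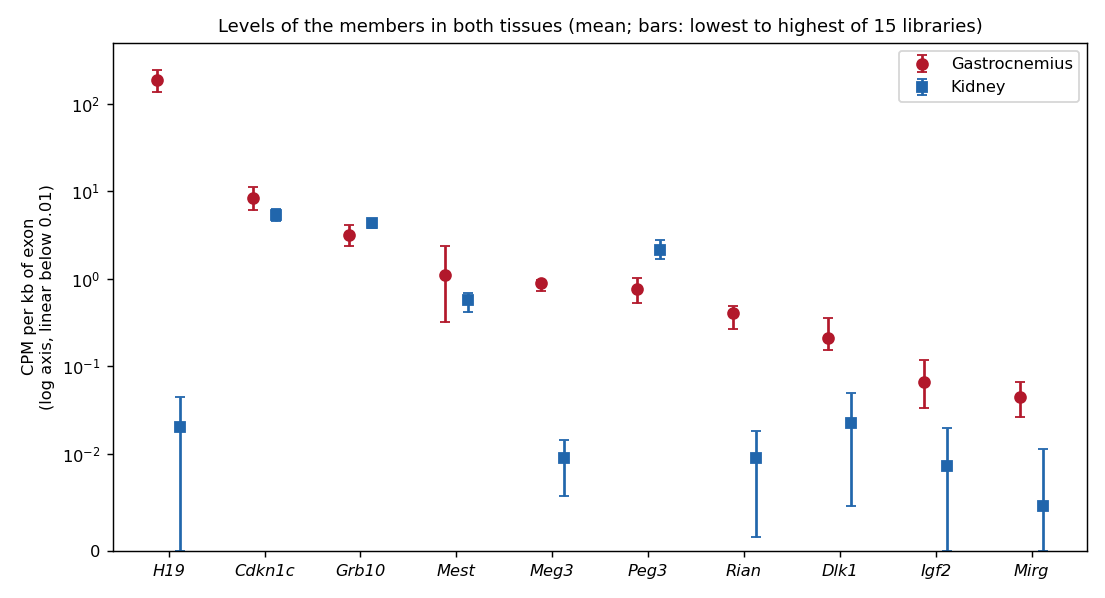
Mean level of each member in gastrocnemius (red circles) and kidney (blue squares), in CPM per kilobase of exon on a log axis that is linear below 0.01, with bars from the lowest to the highest of 15 libraries. *H19* stood at 188 in gastrocnemius and 0.0200 in kidney, the bars of *Cdkn1c*, *Grb10* and *Mest* overlap between the tissues, and *Peg3* lies higher in kidney (1.68 to 2.81) than in gastrocnemius (0.528 to 1.02).

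In gastrocnemius, WD vs. CD separated *Mest* upwards and *Cdkn1c* downwards, with *H19* modestly higher. Of the 10 members, all of which passed the filter on low counts, *Mest* and *H19* were called higher and *Cdkn1c* was called lower, 3 in all, and 7 were not called. Over all 15419 genes tested, 8.63% were called in this comparison, 4.67% higher and 3.96% lower. Among all genes called this was 720 higher and 610 lower, and scaling by total counts turned it into 1506 and 346, with each called member keeping its direction. The groups did not overlap for 2 members, *Mest* and *Cdkn1c*, and for 7.84% of all genes. The median log2 fold change was 0.07 over the members and 0.00 over all genes tested. Since the members were chosen from a readout that may include this comparison, nothing is read from the count.

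*Mest* read 2.17, 1.91, 3.00, 1.45 and 1.25 CPM in the 5 CD muscles. In WD it read 9.28, 8.78, 7.15, 6.09 and 7.25 CPM, from 330 to 487 reads per library. In WD + CHP it read 2.96, 4.81, 2.96, 3.53 and 2.88 CPM. The WD values lay above all CD and all WD + CHP values, and the WD + CHP values lay near the upper end of CD, where 2 of 5 exceeded every CD library. *Mest* was 3.94-fold higher in WD than in CD (log2 fold change 1.98, SE 0.20). In WD + CHP it was 0.445 times the WD level (log2 fold change -1.17, SE 0.19) and 1.75 times the CD level (0.81, SE 0.21). These 3 differences were called. The call in WD + CHP vs. WD was lost when WD replicate 1 or WD + CHP replicate 5 was left out, and that in WD + CHP vs. CD without CD replicate 4, CD replicate 5 or WD + CHP replicate 2, with fold changes that stayed between -1.32 and -1.09 and between 0.66 and 1.02.

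Adipocyte markers were called in the same comparisons, though not always in the direction of *Mest*. All 10 markers of the list passed the filter in gastrocnemius, 5 were called higher and 1, *Cfd*, lower in WD vs. CD, and 5 were called lower in WD + CHP vs. WD. In WD + CHP vs. CD, where *Mest* was higher, 2 were called higher and 2 lower, with a median log2 fold change of -0.10. Their summed level ran from 122 to 198 CPM in CD, 178 to 228 under WD and 105 to 171 under WD + CHP. *Lep*, the leptin gene, ran from 0.561 to 3.84 CPM in CD (5 libraries), 19.4 to 24.9 in WD and 3.24 to 9.51 in WD + CHP. *Adipoq*, the adiponectin gene, stood at 7.89 ± 2.22, 15.8 ± 1.22 and 7.13 ± 1.69 CPM (SD, n = 5) in the same order. Of 8 macrophage markers, edgeR called 0 in gastrocnemius, with 3, 1 and 0 at an unadjusted p under 0.05 in WD vs. CD, WD + CHP vs. WD and WD + CHP vs. CD and median log2 fold changes of 0.31, -0.26 and 0.05. All 8 estimates were above 0 in WD vs. CD and below 0 in WD + CHP vs. WD, and their summed levels overlapped (65.8 to 112, 75.7 to 108 and 55.9 to 113 CPM for CD, WD and WD + CHP). The part of either marker list in the *Mest* values was not tested. In bulk tissue, more cells of a type and more RNA per cell cannot be told apart.

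*Cdkn1c* went the other way and gave no call in WD + CHP vs. WD. It read 21.4, 20.4, 22.5, 21.0 and 23.0 CPM in CD, 13.9, 16.0, 12.7, 16.5 and 14.8 CPM in WD, and 15.6, 13.3, 12.6, 16.2 and 14.2 CPM in WD + CHP. Every CD library lay above every WD and WD + CHP library, and the WD and WD + CHP libraries overlapped over most of their range. *Cdkn1c* was 0.682 times the CD level in WD (log2 fold change -0.55, SE 0.08) and 0.664 times in WD + CHP (-0.59, SE 0.08), and both differences were called. WD + CHP vs. WD was -0.04 (SE 0.08) and was not called. Both calls held in all 10 fits that left out a library. Of 8 endothelial markers, 1, the tight junction gene *Cldn5*, was called lower in the same 2 comparisons (log2 fold change -0.67 and -0.65) and 0 in WD + CHP vs. WD. Their summed level ran from 298 to 363 CPM in CD, 281 to 325 under WD and 286 to 321 under WD + CHP, and their part in the *Cdkn1c* values was not tested.

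*H19* showed a smaller shift with overlapping groups. It read 414, 477, 424, 332 and 401 CPM in CD, 546, 600, 494, 425 and 516 CPM in WD, and 471, 491, 474, 474 and 398 CPM in WD + CHP. The fourth WD library, at 425 CPM, lay inside the CD range and the other 4 lay above it, and 4 of 5 WD + CHP libraries lay inside the CD range. *H19* was 1.26-fold higher in WD than in CD (log2 fold change 0.33, SE 0.10), and this was called. The call was lost in 8 of 10 fits that left out a library, that is without any of CD replicates 1, 3, 4 and 5 or WD replicates 1, 2, 3 and 5, with fold changes of 0.27 to 0.40, and also with no filter on low counts and with only the 2 groups compared. *H19* differed by -0.16 (SE 0.10) in WD + CHP vs. WD and by 0.17 (SE 0.10) in WD + CHP vs. CD, and neither was called. With libraries left out in turn these ran from -0.22 to -0.10 (lowest in size without WD replicate 2) and from 0.11 to 0.24 (lowest without CD replicate 4), with -0.11 and 0.22 without WD + CHP replicate 5. Genes annotated as miscellaneous RNA overlap the exons of *H19* on the opposite strand, *Gm27483* with 164 to 612 reads and *Gm27786* with 75 to 216 reads in gastrocnemius, so with the strand setting unknown these reads cannot be told apart from *H19*. Against 16301 to 32046 reads on *H19* itself they are few.

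Of 10 fast fibre genes, which fill much of these libraries, 2 were called lower in WD vs. CD, *Ckm* and *Acta1*. Over the list, 8 of 10 estimates were below 0 in WD vs. CD and 7 had an unadjusted p under 0.05, with a median log2 fold change of -0.19. The list summed to 236424 to 277286 CPM in CD, 208652 to 240005 under WD and 217276 to 251698 under WD + CHP, so the groups overlapped. Of 12 genes of muscle precursors and regenerating fibres, 9 passed the filter, and 1, the embryonic myosin *Myh3*, was called higher in WD vs. CD, at 8.91 ± 4.09 against 4.35 ± 1.31 CPM (SD, n = 5). In that comparison 5 of the 9 estimates were above 0. *Myod1* was called higher in WD + CHP vs. CD (log2 fold change 0.45). Their summed level ran from 70.2 to 82.6 CPM in CD, 75.4 to 98.3 under WD and 77.8 to 88.8 under WD + CHP. Their part in the *H19* values was not tested.

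*Igf2*, the neighbour of *H19*, was scarce in muscle. Its estimates were opposite in sign to those of *H19* in the comparisons with CD. In WD + CHP vs. WD both genes had estimates below 0 (-0.38 and -0.16). It read 0.503, 0.341, 0.682, 0.570 and 0.519 CPM in CD, 0.381, 0.356, 0.329, 0.258 and 0.440 CPM in WD, and 0.312, 0.286, 0.191, 0.216 and 0.344 CPM in WD + CHP, all from 10 to 35 reads per library. The lowest CD library fell inside the WD range, and 4 of 5 WD + CHP libraries lay below every CD library. WD + CHP vs. CD was called at 0.519 times the CD level (log2 fold change -0.95, SE 0.22). WD vs. CD (-0.56, SE 0.21) and WD + CHP vs. WD (-0.38, SE 0.23) were not. An antisense gene, *Igf2os*, overlaps *Igf2* and had 2 to 14 reads per gastrocnemius library.

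None of the 4 chromosome 12 genes was called in gastrocnemius. *Dlk1* read 1.24, 1.08, 2.03, 1.59 and 1.34 CPM in CD, 0.877, 0.861, 1.22, 1.07 and 0.995 CPM in WD, and 1.01, 0.992, 1.14, 1.24 and 1.01 CPM in WD + CHP. Of the WD libraries, 4 of 5 lay below every CD library, yet WD vs. CD (log2 fold change -0.53, SE 0.16) was not called, nor were WD + CHP vs. CD (-0.43, SE 0.16) and WD + CHP vs. WD (0.10, SE 0.17). With libraries left out in turn, these 3 values ran from -0.62 to -0.38, -0.51 to -0.28 (smallest in size without CD replicate 3) and 0.05 to 0.18. *Dlk1* was called in WD vs. CD by DESeq2 and without CD replicate 2 or WD replicate 3, and in WD + CHP vs. CD without CD replicate 2. *Meg3* stood at 16.0 CPM ± 1.73 in CD, 16.2 ± 0.652 under WD and 16.2 ± 1.36 under WD + CHP (SD, n = 5), and its 3 log2 fold changes lay between -0.01 and 0.02 with an SE of 0.07. *Rian*, a host of small nucleolar RNAs, stood at 6.85 ± 1.13, 7.72 ± 0.427 and 7.67 ± 0.768 CPM, and 4 of 5 WD libraries lay above every CD library (log2 fold change 0.17, SE 0.10, and 0.07 without CD replicate 5). *Mirg*, at 10 to 25 reads per library, stood at 0.285 ± 0.0752, 0.311 ± 0.0583 and 0.370 ± 0.0950 CPM.

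*Peg3* and *Grb10* were lowest on average in WD + CHP without reaching a call. *Peg3* ran from 8.70 to 13.6 CPM in CD, 9.29 to 12.0 under WD and 7.04 to 9.69 under WD + CHP, and WD + CHP vs. WD was -0.24 (SE 0.11) on the log2 scale. *Grb10* ran from 25.7 to 35.3 CPM in CD, 28.6 to 37.7 under WD and 21.8 to 33.2 under WD + CHP, and WD + CHP vs. WD was -0.27 (SE 0.11). In each gene the groups overlapped in every comparison. Of 10 fibroblast markers, 9 passed the filter, and edgeR called 0 in WD vs. CD and 0 in WD + CHP vs. WD, with 4 and 1 at an unadjusted p under 0.05. In WD + CHP vs. CD, 1 (*Dcn*) was called lower. Of the 9, 1 estimate was above 0 in WD + CHP vs. WD, with a median log2 fold change of -0.18, and the list summed to 1216 to 1875 CPM in CD, 1218 to 1799 under WD and 1181 to 1637 under WD + CHP. Their part in the *Peg3* and *Grb10* values was not tested.

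**Figure D2:**
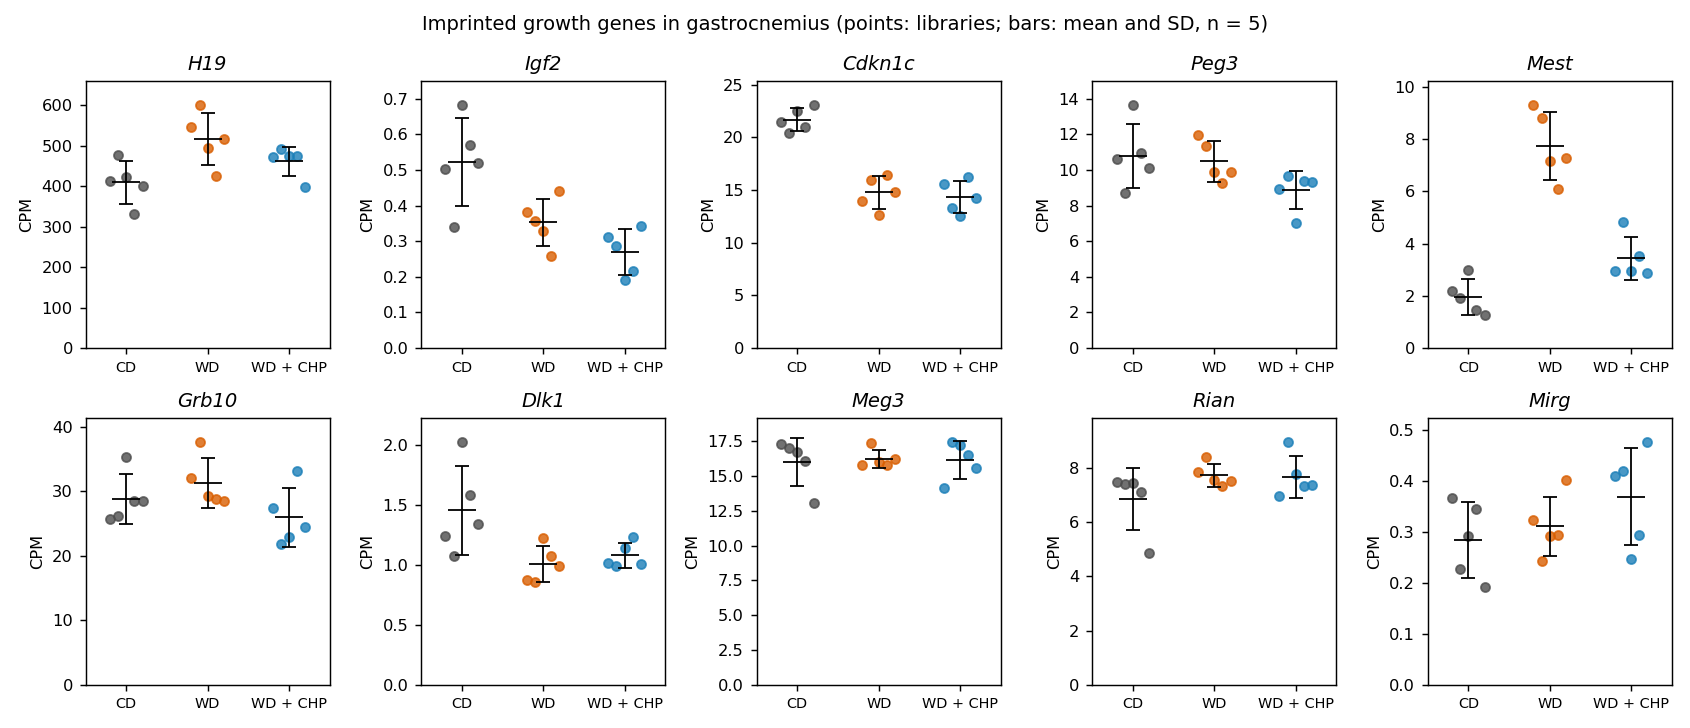
CPM of the 10 members in gastrocnemius, one panel per gene, each with its own axis from 0. Points are the 5 libraries of CD (grey), WD (orange) and WD + CHP (blue), and bars give the mean and SD. The WD libraries of *Mest*, at 6.09 to 9.28 CPM, sit clear of both other groups, the CD libraries of *Cdkn1c* sit above both, and all other genes overlap.

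WD + CHP vs. WD in gastrocnemius gave 1 called member, *Mest*, which was lower, of 10. Of all genes tested, 0.409% were called in this comparison, 0.0649% higher and 0.344% lower (10 and 53 genes, or 0 and 54 with total-count scaling), and the groups did not overlap for 2.83%. The median log2 fold change of the members was -0.10, beside -0.01 over all genes. WD + CHP vs. CD gave 3 called members, *Mest* higher and *Igf2* and *Cdkn1c* lower, with 9.4% of all genes called, 4.85% higher and 4.55% lower, and medians of -0.07 and -0.01. The groups did not overlap for 1 member, *Cdkn1c*, and for 8.75% of all genes. Here too the counts include what may have chosen the genes.

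In kidney, the 4 members past the filter showed little movement. *Mest* ran from 1.63 to 2.33 CPM in CD, 2.32 to 2.66 under WD and 1.91 to 2.72 under WD + CHP, and 4 of 5 WD libraries lay above every CD library (log2 fold change 0.31, SE 0.12). *Cdkn1c* ran from 9.59 to 11.5 CPM in CD, 10.7 to 12.1 under WD and 9.37 to 12.8 under WD + CHP, and 4 of 5 WD + CHP libraries lay below every WD library (-0.17, SE 0.08, and -0.26 without WD + CHP replicate 5). The fifth, WD + CHP replicate 5, was the highest of all 15 kidney libraries at 12.8 CPM. *Grb10* ran from 34.9 to 43.8 CPM and *Peg3* from 22.4 to 37.5 CPM over the 15 libraries, with fold changes of at most 0.10 in either direction on the log2 scale. Of 10 fibroblast markers, 9 estimates were above 0 in WD vs. CD (median 0.30) and 0 in WD + CHP vs. WD (median -0.18). For 8 endothelial markers these were 5 and 0, and for 8 macrophage markers 6 and 1. Of 7 adipocyte markers tested, 1 and 6 were above 0, the other way. The part of these lists in the kidney values was not tested.

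None of the 4 was called in kidney by edgeR, DESeq2 or limma-voom in any of the 3 comparisons, 0 of 4 each. At an unadjusted p under 0.05 edgeR gave 1 in WD vs. CD, 1 in WD + CHP vs. WD and 0 in WD + CHP vs. CD. Over all 17120 kidney genes tested, 9.65%, 0.105% and 12.1% were called in the same order. The groups overlapped for all 4 members in each comparison, and did not overlap for 8.7%, 2.36% and 8.34% of all genes. The fold changes of *Mest* and *Cdkn1c* differed between gastrocnemius and kidney in size, and for *Cdkn1c* in WD vs. CD in sign, but the difference between the tissues was not tested. Exons of *Mest* overlap *Copg2*, which is read from the opposite strand, with 1241 to 1477 reads in kidney and 730 to 892 in gastrocnemius, so reads in the overlap cannot be assigned with the strand setting unknown.

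**Figure D3:**
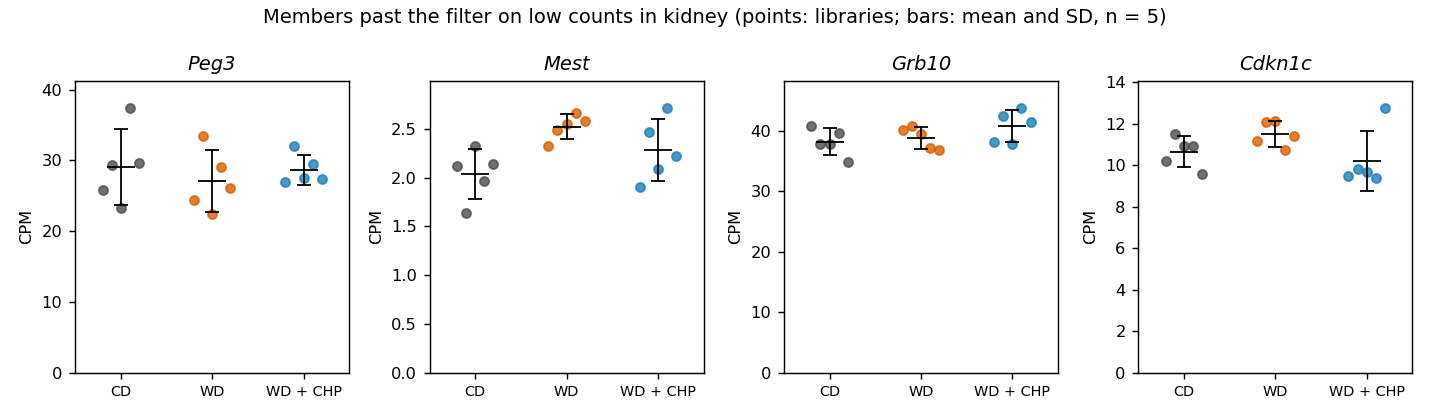
CPM of the 4 members past the filter on low counts in kidney, one panel per gene, each with its own axis from 0, with points for the 5 libraries of each group and bars for the mean and SD. The groups overlap in all 4 genes, and a single WD + CHP library of *Cdkn1c* stands at 12.8 CPM above the rest of its group.

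**Figure D4:**
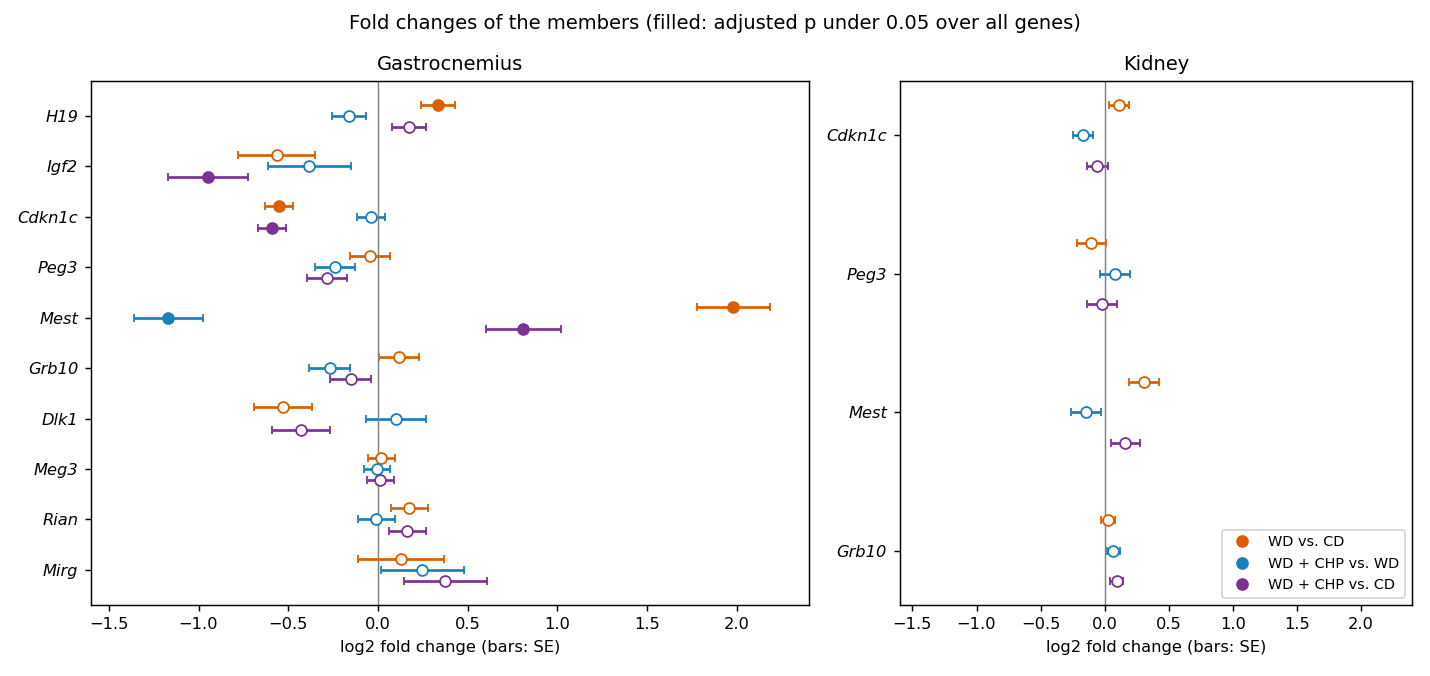
Log2 fold changes with their SE for the 10 members in gastrocnemius (left) and the 4 tested members in kidney (right), coloured by comparison, with filled points for called genes. *Mest* in WD vs. CD, at 1.98, is the farthest from 0, and 0 points are filled in kidney.

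Libraries of the same group were then compared with each other, which does not depend on the differences between groups. After subtraction of the group means, log2 CPM of 10 pairs of members was correlated over the 15 gastrocnemius libraries, with permutation of libraries within groups (100000 permutations, two-sided) and adjustment over the 10 pairs. In kidney no pair was computed, since each held a gene under 10 reads in most libraries. *Meg3* and *Rian*, neighbours on chromosome 12, varied together (Pearson's r 0.914, permutation p = 0.00011, adjusted 0.0011, and Spearman's rho 0.864, permutation p = 0.0001, adjusted 0.0010). Without the 2 libraries farthest from the median of *Meg3*, r was 0.804. Without CD replicate 5, which was lowest in both genes, r was 0.793 and its permutation p, adjusted over the pairs, was 0.119, so the call by r rests on that library. For rho, the value without that library is not given here. CD replicate 5 also stood apart in the number of genes with a read, 24482 against 21333 to 22161 in the other 14 gastrocnemius libraries, and the part of this in the correlation was not tested.

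*H19* and *Mest*, on different chromosomes, gave r = 0.573 (permutation p = 0.0437, adjusted 0.218) and rho = 0.732 (permutation p = 0.00627, adjusted 0.0313), and r was 0.435 without the 2 farthest libraries. The rank correlation passed the adjustment and the linear one did not. The other 8 pairs had r between -0.161 and 0.336, with adjusted permutation p of at least 0.932 for r and 0.746 for rho. These included *H19* with its neighbour *Igf2* (r = -0.161) and *Dlk1* with *Meg3* (r = -0.00).

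The genes with the pattern most like *H19*, *Meg3* and *Mest* over the 15 gastrocnemius libraries were listed by Pearson's r of log2 CPM among 10817 genes with a mean log2 CPM of at least 1. These values include the differences between groups and are a description. For *H19* they were *Cd36*, a fatty acid transporter (r = 0.895, means of 219, 341 and 281 CPM in CD, WD and WD + CHP), *Tpcn2* (r = 0.882) and *Casq2*, the cardiac and slow-fibre calsequestrin (r = 0.870). For *Meg3* they were *Ccdc84* (r = 0.870), *Rian* (r = 0.845) and *Mrps35* (r = 0.799). For *Mest* they were *Lep* (r = 0.956), *Serpina3n* (r = 0.949) and *Fads3* (r = 0.936). In kidney, among 12406 genes, the nearest to *Mest* were *Dpm1* (r = 0.798), *Hsdl1* (r = 0.784) and *Supt7l* (r = 0.777).

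**Figure D5:**
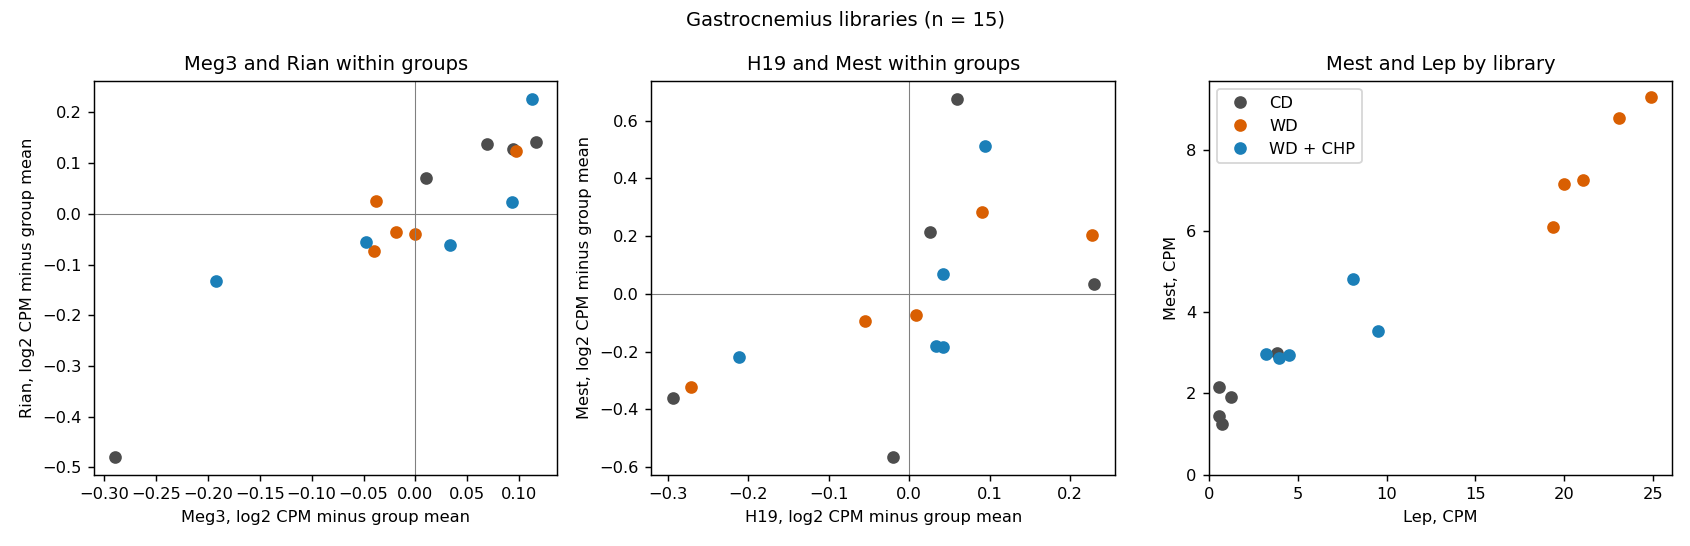
Left and middle, log2 CPM minus the group mean in the 15 gastrocnemius libraries for *Rian* against *Meg3* and for *Mest* against *H19*. Right, CPM of *Mest* against *Lep* by library, coloured by group. The point at the lower left of the first panel is CD replicate 5, and the WD libraries form the upper right of the third, at 19.4 to 24.9 CPM of *Lep*.

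Other imprinted genes were read in the same fits. This list and that of the IGF axis below were drawn up with earlier results of these data known. Their p-values and counts of calls are therefore a description. Of 46 further imprinted genes, 37 passed the filter in gastrocnemius, and in WD vs. CD 1 was called higher and 3 lower, beside 8.63% of all genes. *Nnat*, neuronatin, a paternally expressed proteolipid, was higher in every WD library (3.89 to 5.56 CPM) than in every CD library (0.550 to 1.68 CPM), with a log2 fold change of 2.06 (SE 0.26, edgeR adjusted p = 0.00017). It was also higher in WD + CHP vs. CD (1.55, SE 0.26, edgeR adjusted p = 0.0019). *Asb4*, a subunit of a ubiquitin ligase, was lower in both, by -0.63 (SE 0.10, edgeR adjusted p = 0.00083) and -0.50 (SE 0.10, edgeR adjusted p = 0.0044), and its CD libraries overlapped with neither group. In WD vs. CD, 5 of the 10 adipocyte markers were called higher and 1 lower. In WD + CHP vs. CD, 2 were called higher and 2 lower, with a median log2 fold change of -0.10. The part of these markers in the *Nnat* values was not tested.

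*Kcnq1ot1*, the non-coding RNA that silences the *Cdkn1c* domain on the paternal copy, was lower in WD vs. CD (1.63 ± 0.161 against 2.44 ± 0.304 CPM, log2 fold change -0.59, SE 0.14, edgeR adjusted p = 0.015). *Slc38a4*, an amino acid transporter, was lower too (-0.39, SE 0.11, edgeR adjusted p = 0.038). *Plagl1*, a zinc finger factor of the imprinted gene network, was lower in WD + CHP vs. CD (-0.57, SE 0.16, edgeR adjusted p = 0.031), where 3 of 37 were called beside 9.4% of all genes. In WD + CHP vs. WD 0 of 37 were called by edgeR, DESeq2 and limma-voom, beside 0.409% of all genes by edgeR, with 5 at an unadjusted edgeR p under 0.05. *Slc38a4* lost its call in 7 of 10 fits without a library (kept without CD replicate 3 or WD replicates 3 or 4) and with total counts or the replicate block, and *Plagl1* in 5 (without CD replicates 1 or 3 or WD + CHP replicates 3, 4 or 5) and with no filter.

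In kidney, 37 of the 46 passed the filter as well. WD vs. CD gave 0 calls by edgeR, beside 9.65% of all genes, with 6 at an unadjusted p under 0.05, 2 calls by DESeq2 and 0 by limma-voom. WD + CHP vs. WD gave 0 by edgeR, beside 0.105% of all genes, with 4 at an unadjusted p under 0.05, 1 by DESeq2 and 0 by limma-voom. WD + CHP vs. CD gave 4, beside 12.1% of all genes. *Nap1l5* was lower (2.05 to 4.25 against 4.39 to 7.33 CPM, log2 fold change -0.80, SE 0.18, edgeR adjusted p = 0.0095) and *Ube3a*, a ubiquitin ligase imprinted in neurons, was higher (0.20, SE 0.05, edgeR adjusted p = 0.014), both without overlap between the groups. *Mcts2* (0.30, edgeR adjusted p = 0.046) and *Peg13* (-0.21, edgeR adjusted p = 0.039) overlapped. *Mcts2* lost its call in 8 of 10 fits without a library (kept without CD replicates 2 or 3) and *Peg13* in 7 (kept without CD replicate 2 or WD + CHP replicates 1 or 5), and both lost it with no filter or only the 2 groups, *Mcts2* also with total counts or the replicate block.

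The IGF axis, through which *Igf2*, *Grb10* and the *H19* locus bear on growth, was read from a list of 24 ligands, receptors, binding proteins and adaptors. In gastrocnemius 20 passed the filter, and in WD vs. CD *Igf1*, the main circulating and local IGF, was lower (7.93 ± 1.56 against 12.2 ± 1.53 CPM, log2 fold change -0.62, SE 0.16, edgeR adjusted p = 0.025). The binding protein *Igfbp5* was lower (-0.43, SE 0.08, edgeR adjusted p = 0.0028) and *Igfbp4* was higher (0.29, SE 0.09, edgeR adjusted p = 0.043), 3 called of 20 beside 8.63% of all genes. In WD + CHP vs. CD 4 of 20 were called, beside 9.4% of all genes. *Igf1* (-0.74, edgeR adjusted p = 0.0099), *Igfbp5* (-0.39, edgeR adjusted p = 0.0058) and the receptor *Igf1r* (-0.37, edgeR adjusted p = 0.0044) were lower, and *Grb14*, the relative of *Grb10*, was higher (0.65, edgeR adjusted p = 0.017). WD + CHP vs. WD gave 0 calls by all 3 tools, beside 0.409% of all genes by edgeR, with 3 at an unadjusted edgeR p under 0.05. With libraries left out in turn, *Igfbp4* lost its call in 7 of 10 fits (kept without CD replicates 1 or 2 or WD replicate 4), and also with no filter and with only the 2 groups. *Igf1* in WD vs. CD lost it in 5 of 10 (without CD replicates 1 or 4 or WD replicates 2, 4 or 5) and *Grb14* in 1 (WD + CHP replicate 3).

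In kidney all 24 passed the filter, and 8 were called in WD vs. CD, 5 lower and 3 higher, beside 9.65% of all genes. The largest were *Irs2*, an insulin receptor substrate, at 30.0 ± 4.78 against 85.1 ± 52.6 CPM (log2 fold change -1.50, SE 0.29, edgeR adjusted p = 0.0048), and *Igfbp1*, at 10.0 ± 2.44 against 23.3 ± 4.84 CPM (-1.22, SE 0.22, edgeR adjusted p = 0.0025). *Pappa2*, a protease of IGF binding proteins, was higher (0.83, SE 0.23, edgeR adjusted p = 0.033), as were *Stc2*, an inhibitor of such proteases (0.57, SE 0.13, edgeR adjusted p = 0.0091) and *Igfbp5* (0.28, SE 0.07, edgeR adjusted p = 0.021), and *Grb7* was lower (-0.23, SE 0.05, edgeR adjusted p = 0.0082). *Irs2* ran from 42.7 to 168 CPM among the CD libraries, which is wider than in the other groups. WD + CHP vs. CD gave 6 calls of 24, beside 12.1% of all genes, with *Igfbp1* (-1.34, edgeR adjusted p = 0.0015), *Irs2* (-1.27, edgeR adjusted p = 0.011), *Grb7* (-0.18, edgeR adjusted p = 0.025) and *Igf1r* (-0.18, edgeR adjusted p = 0.040) lower, and *Pappa2* (0.84, edgeR adjusted p = 0.027) and *Pappa* (0.66, edgeR adjusted p = 0.0020) higher. WD + CHP vs. WD gave 0 by all 3 tools, beside 0.105% of all genes by edgeR, with 2 at an unadjusted edgeR p under 0.05. *Pappa2* lost its call in 7 of 10 fits without a library in WD vs. CD (kept without CD replicate 1 or WD replicates 4 or 5) and in 4 in WD + CHP vs. CD (without CD replicates 4 or 5 or WD + CHP replicates 4 or 5). In WD + CHP vs. CD *Grb7* lost it in 6 (without CD replicates 2, 4 or 5 or WD + CHP replicates 1, 3 or 4) and *Igf1r* in 9 (kept without WD + CHP replicate 5) and also with no filter and with only the 2 groups.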

How the data were processed

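Kidney and gastrocnemius RNA-seq libraries, 5 per group, were analysed. The authors deposited raw counts of reads per gene, made from polyA-enriched BGISEQ-500 libraries with SOAPnuke, FastQC and STAR (2.7.3a per the submitters' processing notes, which name GRCm38); the counting tool, annotation and strand setting are not given in the sources used here. Every column matched a library, with 0 left over. Computed here, in R 4.3.3, were the filter (filterByExpr, minimum count 10, which kept 17120 kidney and 15419 gastrocnemius genes with 99.93% and 99.95% of counts), TMM scaling and edgeR 4.0.16 quasi-likelihood F tests with 3 groups in 1 model per tissue, two-sided, adjusted by Benjamini-Hochberg over all genes kept, threshold 0.05. A standard error was the absolute log2 fold change over the square root of F. Common dispersion gave a coefficient of variation between libraries of 9.62% (kidney) and 11.6% (gastrocnemius). log2 CPM used a prior count of 2.

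The members and lists were chosen with earlier results of these data known. Named were all members, at most 6 called genes per tested list and comparison by fold change, and the 3 genes most like *H19*, *Meg3* and *Mest*. Marker lists covered adipocytes, muscle precursors, fibroblasts, endothelium, macrophages, adrenal gland, nephron and fast fibres. Of 8 endothelial and 8 macrophage markers, at most 2 and 0 were called in any comparison of either tissue, and the macrophage medians in gastrocnemius stand beside *Mest*. DESeq2 1.42.0, limma-voom (limma 3.58.1), other scalings and filters, a threshold of 0.1, a replicate block, fits of just the 2 groups in question and fits with each library left out were the alternatives. On simulated counts for gastrocnemius, WD vs. CD (15307 genes), 59% of 100 genes changed by 0.5 and 78% of 100 changed by 1 (log2) were called. For kidney (16948 genes) these were 66% and 87%. Among genes over 1 CPM they were 72.8% and 97.3% in gastrocnemius and 82.3% and 97.6% in kidney. Fewer genes were changed in the simulation than were called in the data, so these rates need not carry over. Counts of 10 to 35 per library limit the precision of *Igf2* and *Mirg*. Plots were drawn with matplotlib 3.10.9. How often each named list gene kept its call was tabulated after seeing the data, from the planned fits.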

Additional observations from a re-analysis of the deposited data

Results flagged for a closer look

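Within groups of 5 libraries, the highest or lowest value of a member was compared with its nearest neighbour, as the gap divided by the range of the group, against Dixon's critical value of 0.71. Of 60 groups (10 genes, 3 groups, 2 tissues), 7 held such a value, and chance alone gives some in a search of this size, about 5% of groups.

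In kidney, *Cdkn1c* in WD + CHP replicate 5 was high at 12.8 CPM with the next library at 9.80 (ratio 0.874). Among genes under the filter there, *Mirg* in WD + CHP replicate 2 was high with 3 reads (ratio 0.97) and *Dlk1* in CD replicate 3 with 10 reads (ratio 0.855).

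In gastrocnemius, *H19* in WD + CHP replicate 5 was low at 398 CPM with the other 4 at 471 to 491 (ratio 0.787). *Rian* in CD replicate 5 was low at 4.84 CPM with the next at 7.10 (ratio 0.861), and *Meg3* was lowest in that library too, at 13.0 CPM, and it held reads on 24482 genes against 21333 to 22161 in the other 14. *Meg3* in WD replicate 2 was high at 17.4 CPM with the next at 16.2 (ratio 0.716). *Peg3* in WD + CHP replicate 3 was low at 7.04 CPM with the next at 8.95 (ratio 0.721).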

How the results depend on the processing

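In the alternatives run, no called member changed sign. The log2 fold changes of the members moved by less than the SD between single libraries in all 756 values. For the fits without a library this was largely fixed in advance, since leaving out 1 of 5 libraries can hardly move a group mean that far. Scaling by total counts moved the median of all genes by at most 0.07 (log2) but changed the split of calls over all genes, in gastrocnemius WD vs. CD from 720 higher and 610 lower to 1506 and 346, in kidney WD + CHP vs. CD from 1070 and 1000 to 660 and 1814, and in gastrocnemius WD + CHP vs. WD from 10 and 53 to 0 and 54. With libraries left out in turn, members called in gastrocnemius ranged from 2 to 4 in WD vs. CD, 0 to 1 in WD + CHP vs. WD and 2 to 4 in WD + CHP vs. CD, and from 0 to 0 in kidney. DESeq2, the replicate block and at least 10 counts in every library gave 4 in gastrocnemius WD vs. CD, where *Dlk1* was added, and no filter and only the 2 groups gave 2, where *H19* was lost.

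Other imprinted genes called in kidney WD vs. CD went from 0 to 2 with DESeq2, the replicate block or only the 2 groups compared, to 3 at an adjusted p under 0.1 and to 0 to 1 with libraries left out. In kidney WD + CHP vs. WD they went from 0 to 1 with DESeq2, and in kidney WD + CHP vs. CD from 4 to 2 with no filter or only the 2 groups, and 2 to 4 with libraries left out (2 without CD replicates 1, 4 or 5 or WD + CHP replicates 3 or 4). IGF axis genes in gastrocnemius WD vs. CD went from 3 to 5 with DESeq2, total counts or an adjusted p under 0.1, and 1 to 4 with libraries left out (1 without CD replicate 4 or WD replicates 2 or 5). Leaving out libraries gave 5 to 7 and 3 to 6 IGF axis genes in kidney WD vs. CD (5 without WD replicate 3) and WD + CHP vs. CD (3 without CD replicates 4 or 5 or WD + CHP replicate 4). Of the 30 calls named for these 2 lists, 19 held in every fit without a library and 11 were lost in at least 1. The causes were not tested.

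Samples with the same replicate number correlated by -0.13 to 0.15 in their deviations, and 4 of 15 kidney and 3 of 15 gastrocnemius libraries correlated best with their own number. These values show no pairing by replicate number, but with 5 libraries per group they cannot exclude one. With the replicate block, 1147 genes in gastrocnemius WD vs. CD were called in place of 1330, and 70 in kidney WD + CHP vs. WD in place of 18.

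Within-group correlations changed sign when single libraries were left out for *H19* with *Igf2* (-0.48 to 0.12), *H19* with *Cdkn1c* (-0.25 to 0.16), *Igf2* with *Cdkn1c* (-0.10 to 0.34), *Dlk1* with *Meg3* (-0.16 to 0.15), *Meg3* with *Mirg* (-0.42 to 0.26), *Rian* with *Mirg* (-0.14 to 0.43) and *H19* with *Peg3* (-0.10 to 0.36). *Meg3* with *Rian* ran from 0.79 to 0.94.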
